A study of Mus musculus with 9 samples.

Results

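The 9 genes described here are the core of the Hedgehog pathway: the receptor Ptch1, the signal transducer Smo, the coreceptors Boc and Cdon, the decoy receptor Hhip, the Gli inhibitor Sufu and the transcription factors Gli1, Gli2 and Gli3. They were chosen by symbol, as 9 of the 48526 genes in the count table, and all 9 passed the expression filter that left 18858 genes for testing. The cells were neural stem cells (NSCs) from the subependymal zone (SEZ) of adult C57BL/6 mice, with no transgene named in the labels, grown as neurospheres in medium with EGF and FGF. Differentiation was induced on an adhesive substrate by taking EGF away while FGF was kept, and RNA was sequenced before the switch (0 h) and 1 h and 6 h later. Cells that the authors fixed soon after induction had first been seeded in medium with EGF and FGF. Whether this held for the sequenced cells is not stated. No library at 1 h or 6 h came from cells kept with EGF, so loss of EGF, change of medium and time cannot be told apart. Each time point had 3 replicates, numbered 1 to 3 here for the letters B, C and D in the sample titles. This gave 9 libraries with total counts between 65871454 and 105592597. The labels do not say what libraries with the same number share, nor how many animals gave each culture, so the p-values below measure the spread between these samples only.

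In the absence of ligand, Ptch1 holds Smo inactive, and Sufu together with protein kinase A keeps Gli2 and Gli3 in inactive or repressor forms. When Shh, Ihh or Dhh binds Ptch1, helped by Boc, Cdon and Gas1, Smo accumulates in the primary cilium and the Gli proteins become activators. Gli1, Ptch1 and Hhip are themselves transcribed in response to the signal, and in the adult SEZ this pathway is known for its role in NSC maintenance and in setting the identity of the neurons produced.

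Levels are given as CPM, the read counts of a gene relative to the scaled size of its library, and changes as log2 fold changes from edgeR's quasi-likelihood test with Benjamini-Hochberg adjustment over all tested genes. A gene was called at an adjusted p under 0.05. Positions of genes are those of GENCODE M21 on GRCm38. With time point as the only factor, 0 of the 9 genes were called in any of the 3 comparisons, while 0.0424% of all tested genes were called at 1 h against 0 h, 2.42% at 6 h against 0 h and 2.14% at 6 h against 1 h. At an unadjusted p under 0.05 the same edgeR fit gave 0, 2 and 1 of the 9 genes in these comparisons, and DESeq2 without the replicate number called 0, 1 and 1, which was Sufu both times (adjusted p = 0.0397 and 0.0188). When the replicate number was added as a block, 1 gene was called at 1 h against 0 h (Boc), 3 at 6 h against 0 h (Boc and Sufu higher, Cdon lower) and 4 at 6 h against 1 h (Boc and Sufu higher, Ptch1 and Smo lower). In that blocked fit 3.51% of all tested genes were called at 1 h against 0 h (1.36% higher and 2.14% lower). The share was 34.9% at 6 h against 0 h (17.4% higher and 17.5% lower) and 35.6% at 6 h against 1 h (18.0% higher and 17.5% lower). The 3 of 9 and 4 of 9 genes called at 6 h are therefore near these shares. The median log2 fold change of the 9 genes with the block was -0.04 at 1 h against 0 h, -0.13 at 6 h against 0 h and -0.11 at 6 h against 1 h, beside medians of 0.00 over all tested genes.

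**Figure D1:**
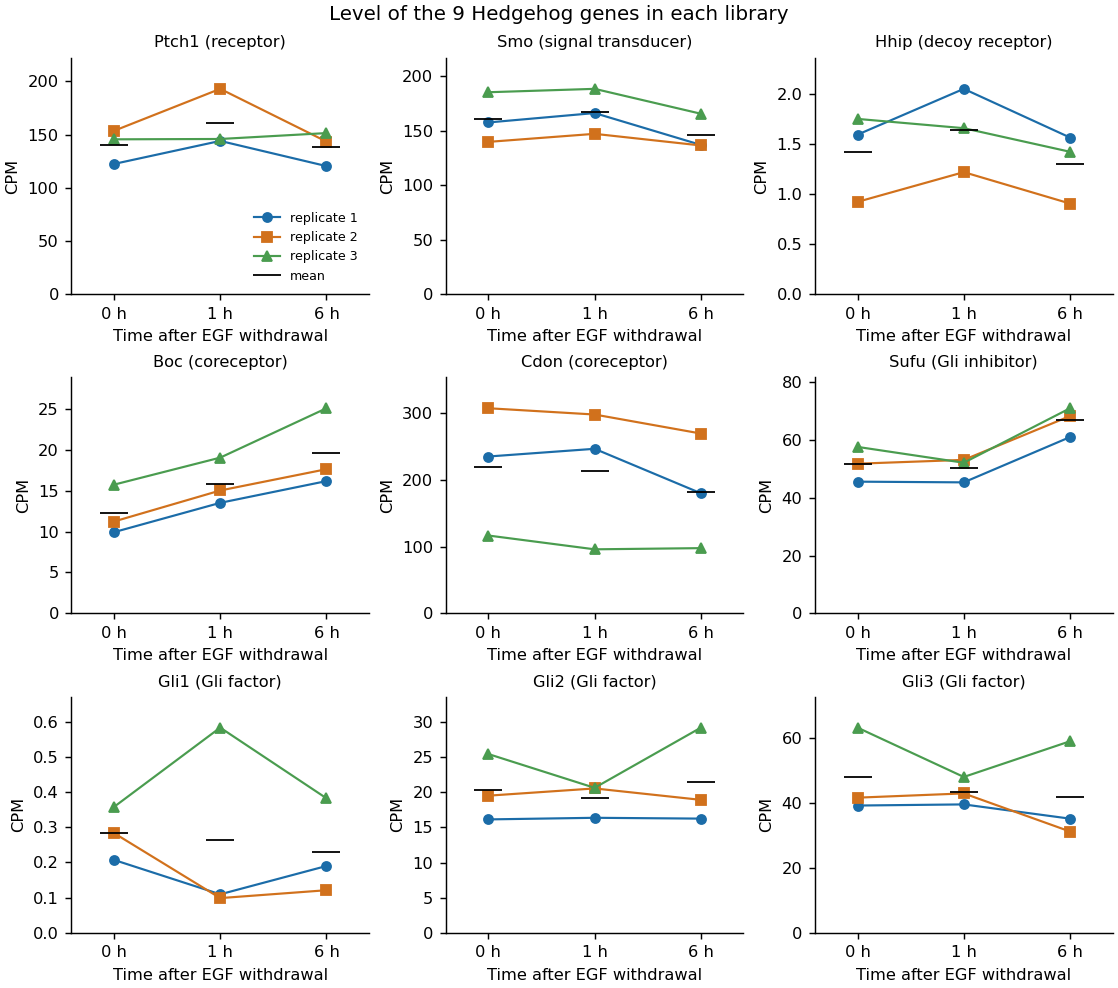
CPM of each of the 9 genes (vertical axis, from 0) by hours after EGF withdrawal (horizontal axis: 0 h, 1 h, 6 h). Each coloured line joins the 3 libraries with the same replicate number and the black bar is the mean of a time point. Boc rises in all 3 lines and Sufu is highest at 6 h in all 3, whereas the lines of Cdon stay far apart at every time point.

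The pair of coreceptors moved in opposite directions at 6 h. Boc (ENSMUSG00000022687, chr16:44485049-44558897, minus strand), an immunoglobulin-type cell surface protein that binds Hedgehog ligands, had 9.93, 11.2 and 15.7 CPM in replicates 1, 2 and 3 at 0 h. Its level was 13.5, 15.03 and 19.05 CPM at 1 h and 16.2, 17.6 and 25.1 CPM at 6 h. Every replicate was higher at 1 h than at 0 h and higher again at 6 h, and the 6 h libraries all lay above the 0 h libraries. Mean levels of 12.3 ± 3.05 CPM before withdrawal and 19.6 ± 4.78 CPM after 6 h (SD, n = 3) were measured. The log2 fold change of Boc at 6 h against 0 h was 0.68 (SE 0.23, adjusted p = 0.172) without the block and 0.68 (SE 0.06, adjusted p = 7.29e-06) with it, a 1.60-fold rise. This call held in 17 of 17 alternatives with the block, among them each library left out in turn, with adjusted p no higher than 0.000449. At 1 h against 0 h the log2 fold change of Boc with the block was 0.38 (SE 0.07, adjusted p = 0.00658), and this call was lost without the 0 h library of replicate 1 (adjusted p = 0.0581) or of replicate 2 (0.0628), and without all libraries of replicate 1 (0.0669) or replicate 2 (0.118). From 1 h to 6 h Boc rose by a further 0.30 (SE 0.06, adjusted p = 0.00302 with the block, 0.562 without it).

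Cdon (ENSMUSG00000038119, chr9:35421128-35507652, plus strand), the paralogue of Boc with the same role at the receptor, was the more abundant of the pair and had the widest range between replicates of the 9 genes in levels averaged over the 3 time points. Its level at 0 h was 235, 307 and 117 CPM in replicates 1, 2 and 3. At 1 h it was 247, 298 and 95.9 CPM, and at 6 h it was 180, 269 and 97.7 CPM. Replicate 3 was the lowest at every time point, and the time points overlapped. All 3 replicates were lower at 6 h than at 0 h. The log2 fold change at 6 h against 0 h was -0.27 without the block (SE 0.52, adjusted p = 0.870) and -0.27 with it (SE 0.07, adjusted p = 0.0108), a level 0.827 times that at 0 h. This call was lost without the 6 h library of replicate 1 (log2 fold change -0.18, adjusted p = 0.0906), without the 0 h library of replicate 3 (-0.23, adjusted p = 0.0766), and without all libraries of replicate 1 (adjusted p = 0.0522) or replicate 2 (0.0579). Between 1 h and 6 h the blocked log2 fold change of Cdon was -0.19 (SE 0.07, adjusted p = 0.0556), which became -0.23 with an adjusted p of 0.00375 once trends in GC content and length had been removed, 0.0301 with DESeq2 and 0.0499 with RLE scaling. It was also called without all libraries of replicate 3 (adjusted p = 0.00395), the 1 h library of replicate 3 (0.00127) or its 6 h library (0.0282). Only these 6 of 17 alternatives with the block passed the threshold. In the rest the log2 fold change was as small as -0.062 and the adjusted p as high as 0.617. Replicate 3 itself was slightly higher at 6 h than at 1 h.

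Because the coreceptors went opposite ways, their ratio per kb of exons was taken within each library as a description. Cdon over Boc was 13.7 at 0 h, 10.5 at 1 h and 6.42 at 6 h in replicate 1. In replicate 2 it was 15.8, 11.4 and 8.82, and in replicate 3 it was 4.27, 2.91 and 2.25. The ratio fell at each step in each of the 3 replicates, and Cdon stayed the more abundant of the pair in every library. Cdon itself rose from 0 h to 1 h in replicate 1 and from 1 h to 6 h in replicate 3, where Boc rose more. No GC trend was removed from this ratio, with a transcript GC content of 48.7% for Cdon and 55.9% for Boc, and its effect was not tested.

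**Figure D2:**
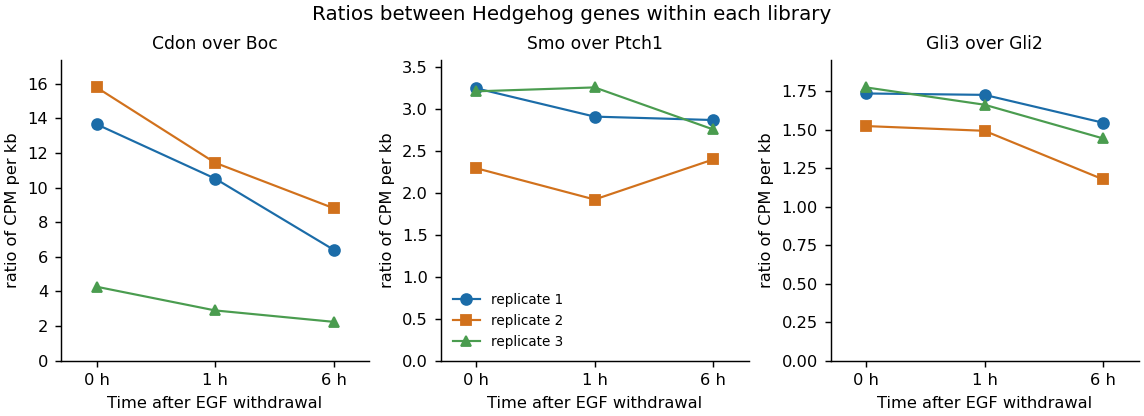
Ratios of CPM per kb of exons (vertical axes, from 0) for Cdon over Boc, Smo over Ptch1 and Gli3 over Gli2 by time point, one line for each replicate number. Cdon over Boc goes from 13.7 to 6.42 in replicate 1, from 15.8 to 8.82 in replicate 2 and from 4.27 to 2.25 in replicate 3, and Gli3 over Gli2 is also lowest at 6 h in each replicate.

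Sufu (ENSMUSG00000025231, chr19:46396896-46488804, plus strand), the protein that binds Gli factors and restrains them in the cytoplasm, rose between 1 h and 6 h. It had 45.6, 51.8 and 57.7 CPM in replicates 1, 2 and 3 at 0 h and 45.4, 53.2 and 52.2 CPM at 1 h. At 6 h it had 61.1, 68.4 and 71.1 CPM. The 6 h libraries all lay above those of the other time points, and the 0 h and 1 h libraries overlapped. Means of 51.7 ± 6.03, 50.2 ± 4.24 and 66.8 ± 5.16 CPM (SD, n = 3) followed for the 3 time points in turn. Its log2 fold change at 6 h against 0 h was 0.37 without the block (SE 0.11, adjusted p = 0.120) and 0.37 with it (SE 0.05, adjusted p = 0.000124), a 1.29-fold rise. Against 1 h it was 0.41 without the block (SE 0.11, adjusted p = 0.0981) and 0.41 with it (SE 0.05, adjusted p = 6.16e-05). Both blocked calls held in all 17 alternatives with the block. No change of Sufu was detectable at 1 h against 0 h with the block (-0.04, SE 0.05, adjusted p = 0.743), with a direction that turned when replicate 3 was left out.

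The receptor and the signal transducer changed less. Ptch1 (ENSMUSG00000021466, chr13:63508328-63573598, minus strand), a membrane protein that keeps Smo inactive and whose gene is a transcriptional target of the pathway, had 122, 153 and 146 CPM in replicates 1, 2 and 3 at 0 h. It had 144, 193 and 146 CPM at 1 h and 120, 143 and 151 CPM at 6 h. The time points overlapped, and replicates 1 and 2 were higher at 1 h than at 0 h or 6 h whereas replicate 3 was highest at 6 h. At 1 h against 0 h the log2 fold change with the block was 0.19 (SE 0.07, adjusted p = 0.172), and it became 0.26 (SE 0.05, adjusted p = 0.00698) once GC and length trends had been removed. This change was called too without all libraries of replicate 3 (adjusted p = 0.00870) or its 1 h library (0.00473). Only these 3 of 17 alternatives with the block passed the threshold. In the rest the log2 fold change was as small as 0.099 and the adjusted p as high as 0.559, and replicate 3 was nearly level from 0 h to 1 h. Ptch1 was lower at 6 h than at 1 h by the blocked fit, at -0.21 (SE 0.07, adjusted p = 0.0342), against an adjusted p of 0.503 without the block. This call was lost without 6 of the 9 single libraries in turn, with the largest loss without the 1 h library of replicate 2 (log2 fold change -0.12, adjusted p = 0.277), and also with library totals in place of scaling factors (adjusted p = 0.0767). The other 5 libraries were the 6 h library of replicate 2 (0.258), the 6 h and 1 h libraries of replicate 1 (0.123 and 0.106), and the 0 h libraries of replicates 2 and 3 (0.0636 and 0.0513), and the call was also lost without all libraries of replicate 1 (0.142) or replicate 2 (0.464) or with a mean of at least 1 CPM as the filter (0.0572). Ptch1 at 6 h against 0 h had a log2 fold change of -0.02 (SE 0.07, adjusted p = 0.867 with the block).

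Smo (ENSMUSG00000001761, chr6:29735503-29761365, plus strand), the seven-pass membrane protein that carries the signal into the cell, had 158, 140 and 185 CPM in replicates 1, 2 and 3 at 0 h, 166, 147 and 188 CPM at 1 h and 137, 136 and 166 CPM at 6 h. Every replicate was lowest at 6 h, although the time points overlapped. The log2 fold change at 6 h against 1 h was -0.19 (SE 0.05, adjusted p = 0.00896) with the block and -0.19 (SE 0.14, adjusted p = 0.530) without it. This call was lost without the 6 h library of replicate 1 (-0.15, adjusted p = 0.0713), the 1 h library of replicate 1 (-0.17, adjusted p = 0.0567) or all libraries of replicate 1 (-0.15, adjusted p = 0.163). Against 0 h the blocked change at 6 h was -0.13 (SE 0.05, adjusted p = 0.0527). After removal of GC and length trends it was -0.25, with an adjusted p of 0.000338, and with RLE scaling the adjusted p was 0.0478. It was 0.0406 without the 6 h library of replicate 2 and 0.0152 without the 1 h library of replicate 3. Only these 4 of 17 alternatives with the block passed the threshold. In the rest the log2 fold change was as small as -0.091 and the adjusted p as high as 0.420.

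Hhip (ENSMUSG00000064325, chr8:79965851-80058006, minus strand), which binds Hedgehog ligands at the surface without passing on a signal, was among the lowest of the 9 genes, with 68 to 152 counts in a library. It had 1.59, 0.919 and 1.75 CPM at 0 h, 2.05, 1.22 and 1.65 CPM at 1 h and 1.56, 0.902 and 1.42 CPM at 6 h in replicates 1, 2 and 3. No change passed the threshold, the nearest being -0.35 at 6 h against 1 h (SE 0.15, adjusted p = 0.0868 with the block). The exons of Hhip overlap Gm27820 on the other strand by 175 bases, and since the strand setting of the counting is not stated, these counts are uncertain.

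**Figure D3:**
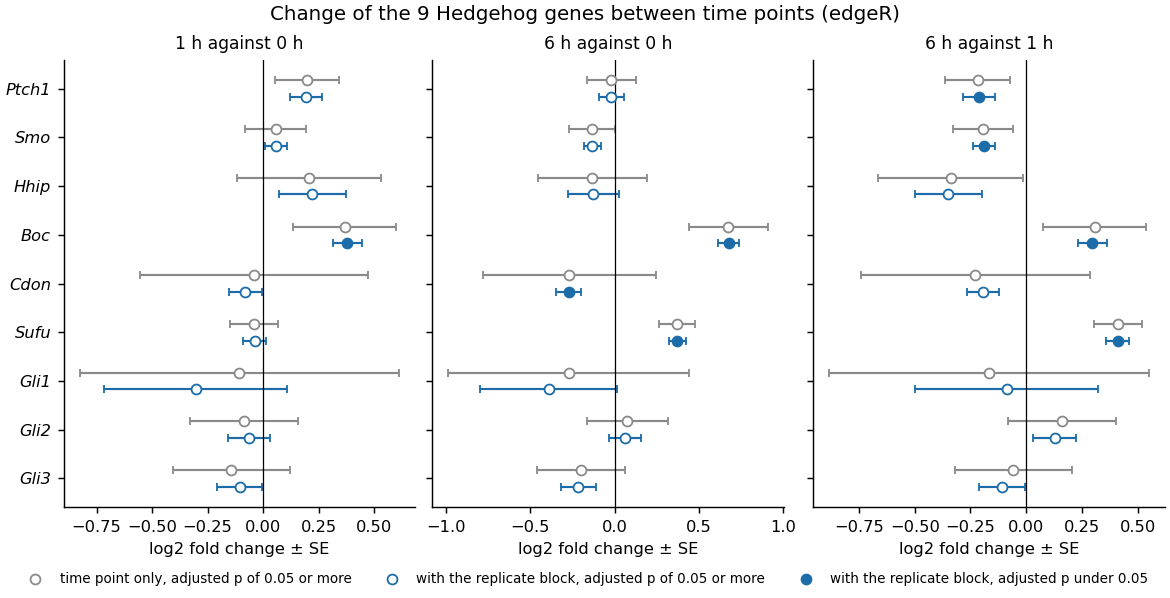
Log2 fold change of each gene (horizontal axis) with its standard error in the 3 comparisons, from edgeR with time point only (grey) and with the replicate number as a block (blue). Filled points have an adjusted p under 0.05 and are all blue: Boc in every comparison, Sufu in both comparisons with 6 h, Cdon at 6 h against 0 h, and Ptch1 and Smo at 6 h against 1 h.

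The 3 Gli factors, the zinc finger proteins at the end of the pathway, were not called in any comparison of all 9 libraries with or without the block. Gli1 (ENSMUSG00000025407, chr10:127329882-127341974, minus strand), the activator that is induced by the signal and is a common readout of it, had 15, 21 and 25 counts at 0 h in replicates 1, 2 and 3, 7, 9 and 42 counts at 1 h and 14, 11 and 41 counts at 6 h. These counts are 0.207, 0.284 and 0.358 CPM at 0 h, 0.109, 0.0986 and 0.584 CPM at 1 h and 0.190, 0.121 and 0.383 CPM at 6 h. Replicate 3 was the highest at every time point, and replicates 1 and 2 were lower at 1 h than at 0 h where replicate 3 was higher. The log2 fold change of Gli1 was -0.39 at 6 h against 0 h with the block (SE 0.41, adjusted p = 0.499), so a change of this size was within its error. The exons of Gli1 overlap Gm47200 by 265 bases and Arhgap9 by 62 bases on the other strand, which leaves such low counts uncertain.

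Gli2 (ENSMUSG00000048402, chr1:118834132-119053619, minus strand), the main activator form in many tissues, had 16.1, 19.5 and 25.5 CPM at 0 h, 16.4, 20.6 and 20.6 CPM at 1 h and 16.3, 18.9 and 29.2 CPM at 6 h in replicates 1, 2 and 3. Replicate 1 was nearly level over time, and the direction of the 6 h change (0.06, SE 0.09, adjusted p = 0.653 with the block) turned to -0.02 after removal of GC and length trends. Gli3 (ENSMUSG00000021318, chr13:15463235-15730026, plus strand), which is processed to the main repressor form, had 39.1, 41.5 and 63.1 CPM at 0 h, 39.5, 42.8 and 47.9 CPM at 1 h and 35.1, 31.1 and 58.9 CPM at 6 h. Every replicate of Gli3 was lower at 6 h than at 0 h, with a blocked log2 fold change of -0.22 (SE 0.10, adjusted p = 0.121). Without the libraries of replicate 3 this was -0.28 with an adjusted p of 0.00994, and without the 6 h library of replicate 3 or the 1 h library of replicate 3 the adjusted p was 0.0112 and 0.0129. Only these 3 of 17 alternatives with the block passed the threshold. Among the others the log2 fold change was as small as -0.076 and the adjusted p as high as 0.630. At 6 h against 1 h Gli3 was likewise called lower without the libraries of replicate 3 (-0.32, adjusted p = 0.00565) or its 1 h library (-0.29, adjusted p = 0.00906). These were 2 of 17 alternatives with the block, the adjusted p was as high as 0.894 in the others, and the direction turned in 3. The exons of Gli3 overlap Gm6556 by 188 bases on the other strand.

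Within a library, Gli3 was 1.18 to 1.77 times as abundant as Gli2 per kb of exons, and the ratio was lowest at 6 h in each replicate (1.55, 1.18 and 1.44 in replicates 1, 2 and 3, beside 1.74, 1.52 and 1.77 at 0 h). No GC trend was removed from the ratio of Gli3 to Gli2, with a transcript GC content of 48.4% for Gli3 and 57.5% for Gli2. The effect of such a trend on the ratio was not tested. Gli1 made up at most 1.44% of the summed Gli level per kb in any library. These levels are of mRNA and say nothing of the activator and repressor forms of the proteins.

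Promoter sequence was available from RefSeq (GRCm38.p6) for 7 of the 9 genes, all but Boc and Gli1, and was searched on both strands for the Gli binding motif GACCACCCA and its core ACCACCC, which lies within it. For Ptch1, Cdon and Gli3 the RefSeq start lies inside the gene as GENCODE draws it. None of the 7 windows of 250 bases before the start holds the full motif, which is found in 0.225% of 32851 windows of this length, and the core is found in the window of Gli2 alone, against 3.92% of all windows. The windows of Gli2 (chr1:119053620-119053869, minus strand), which carries the match, of Sufu (chr19:46396646-46396895, plus strand), which rose at 6 h, and of Smo (chr6:29735247-29735496, plus strand), which fell between 1 h and 6 h by the blocked fit, are shown 5′ to 3′, with the match to the core on the opposite strand in capitals.
Gli2: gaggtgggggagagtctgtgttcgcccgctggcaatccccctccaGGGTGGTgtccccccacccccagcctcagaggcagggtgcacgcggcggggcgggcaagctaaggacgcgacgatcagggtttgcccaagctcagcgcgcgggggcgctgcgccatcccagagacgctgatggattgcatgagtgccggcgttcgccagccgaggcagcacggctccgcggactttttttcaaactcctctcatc
Sufu: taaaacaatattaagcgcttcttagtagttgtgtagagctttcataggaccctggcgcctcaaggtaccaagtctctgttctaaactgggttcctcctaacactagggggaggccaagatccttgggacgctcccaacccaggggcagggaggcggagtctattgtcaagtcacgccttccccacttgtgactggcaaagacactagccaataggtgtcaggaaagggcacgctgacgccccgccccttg
Smo: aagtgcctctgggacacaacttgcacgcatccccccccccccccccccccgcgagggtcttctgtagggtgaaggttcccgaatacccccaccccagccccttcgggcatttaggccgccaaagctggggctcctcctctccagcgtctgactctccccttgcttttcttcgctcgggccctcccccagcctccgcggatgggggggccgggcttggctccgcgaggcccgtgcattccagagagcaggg
A match of letters is no evidence of binding, and its absence says only that these letters are not in this window. The window of Sufu has a GC content of 54.0%, against 67.2% for Gli2 and 68.4% for Smo.

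Per kb of exons, the level of the 9 genes at 0 h went from 28.6 ± 4.09 CPM per kb (SD, n = 3) for Smo down to 0.0567 ± 0.0151 for Gli1. Cdon had 28.5 ± 12.5, Ptch1 9.90 ± 1.14, Sufu 6.72 ± 0.783, Gli3 4.996 ± 1.38, Gli2 2.97 ± 0.686, Boc 2.76 ± 0.685 and Hhip 0.156 ± 0.0485 CPM per kb. In this order Smo and Cdon overlapped, as did Sufu and Gli3, and Gli2 and Boc, whereas the other neighbours were apart in all libraries. At 6 h Boc stood at 4.41 ± 1.07, beside 4.35 ± 1.57 for Gli3 and 3.13 ± 0.997 for Gli2, and Sufu at 8.69 ± 0.671 overlapped Ptch1 at 9.75 ± 1.14 CPM per kb. With the longest transcript as the length, 4 genes changed places at 6 h, Sufu with Ptch1 and Boc with Gli3.

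**Figure D4:**
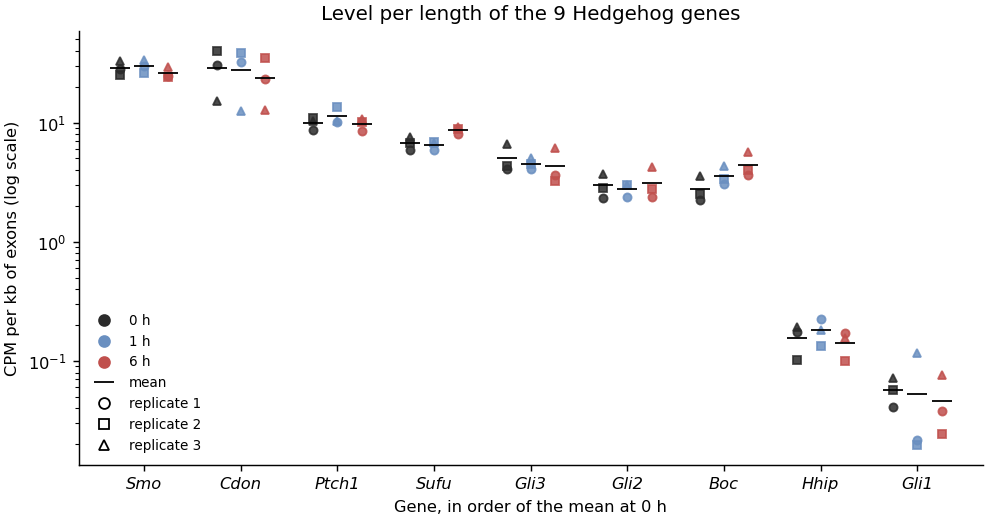
CPM per kb of exons (vertical axis, log scale) of the 9 genes in each library, ordered by the mean at 0 h, with colours for time points, symbols for replicates and a black bar for each mean. Smo and Cdon lie highest, near 28.6 CPM per kb at 0 h, and Hhip and Gli1 lie well below the other 7 genes at all time points.

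All 9 genes differed between the 3 replicate numbers at the same time points in a joint test of the replicate terms, and 56.8% of all tested genes did so. The adjusted p ranged from 9.56e-09 for Cdon to 0.00825 for Gli1 (edgeR with Benjamini-Hochberg adjustment). Averaged over the 3 time points, Cdon had 221, 292 and 103 CPM in replicates 1, 2 and 3, a 2.82-fold range. Boc had 13.2, 14.6 and 19.96 CPM, a 1.51-fold range, so that replicate 3 was the highest for Boc and the lowest for Cdon. Replicate 3 was also the highest for Gli1, Gli2, Gli3, Smo and Sufu, replicate 2 for Ptch1 and replicate 1 for Hhip. For Cdon this range between replicates was far wider than its change over time, and without the block it entered the SE of 0.52 at 6 h against 0 h.

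Marker genes of the cell types that such cultures could hold were read in the same libraries. All 8 NSC and progenitor markers (Nes, Sox2, Sox9, Vim, Fabp7, Slc1a3, Pax6 and Egfr) had a mean of at least 1 CPM at each time point, with a summed level of 7599.9 to 9194 CPM at 0 h, 7396 to 9656 at 1 h and 6701 to 8493 at 6 h. These markers did not move together. Nes, Vim and Fabp7 were lower at 6 h than at 0 h in every replicate, whereas Sox9, Slc1a3, Pax6 and Egfr were higher in every replicate. Sox2 was higher in replicates 1 and 3 and slightly lower in replicate 2. The 6 neuroblast and neuron markers summed to 964 to 1483 CPM at 0 h and 1002 to 1567 at 6 h, most of it Map2. Among them Syt1 went from 10.5, 24.4 and 33.5 CPM in replicates 1, 2 and 3 at 0 h to 39.8, 57.6 and 114 CPM at 6 h, and Tubb3 from 4.34, 4.91 and 2.03 to 8.97, 10.1 and 4.43 CPM. Rbfox3 and Snap25 were also called higher with the block, at levels of at most 7.47 CPM, and Map2 and Dcx were not called. The 4 astrocyte markers summed to 67.2 to 215 CPM at 0 h and 73.3 to 223 at 6 h, nearly all of it Aldh1l1, which was not called, and Gfap was called lower from at most 1.63 CPM. These markers did not move together either. Aldh1l1 and Aqp4 were slightly higher at 6 h than at 0 h in every replicate. S100b was higher in replicates 1 and 3 and slightly lower in replicate 2. The 5 oligodendrocyte progenitor markers summed to 1690 to 2288 CPM at 0 h and 2162 to 2510 at 6 h. Cspg4 rose from 69.98, 54.3 and 73.5 to 183, 151 and 188 CPM, Olig2, Pdgfra and Sox10 were called higher too, and Sox10 was at most 0.327 CPM. Olig1, the most abundant of the 5, had 1509, 1082 and 1093 CPM at 0 h and 1468, 1376 and 1193 CPM at 6 h. It was thus lower at 6 h in replicate 1 and higher in replicates 2 and 3. The 3 oligodendrocyte markers (Mbp, Mog and Mag) summed to 0.802 to 0.926 CPM at 0 h and 0.989 to 1.40 at 6 h, and none was called at 6 h against 0 h. The 4 ependymal markers summed to 47.3 to 88.5 CPM at 0 h and 38.5 to 60.1 at 6 h, nearly all of it Foxj1, which was called lower. None of 5 microglia markers reached 1 CPM. Of 5 endothelial and mural markers, summing to 2.02 to 4.28 CPM at 0 h and 2.21 to 6.46 at 6 h, Cdh5 and Cldn5 were at or near 0 in every library and Pecam1 was at most 0.362 CPM. Kdr was called lower, from 1.71, 4.12 and 2.21 to 1.09, 2.59 and 1.22 CPM, and Pdgfrb was called higher, from 0.0691, 0.0405 and 0.387 to 0.760, 0.627 and 4.97 CPM. In bulk RNA, fewer cells of a type and less RNA per cell cannot be told apart, and the part of these shifts in the changes of Boc, Sufu and Cdon was not tested.

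Of 45 other genes of the pathway, 41 could be tested. None was called in any comparison without the block, although 0, 6 and 7 had an unadjusted p under 0.05 at 1 h against 0 h, 6 h against 0 h and 6 h against 1 h, and DESeq2 called 0, 3 and 3. With the block, 1 was called at 1 h against 0 h, 17 at 6 h against 0 h (5 higher and 12 lower) and 19 at 6 h against 1 h (8 higher and 11 lower). The shares of all tested genes called in these comparisons were 3.51%, 34.9% and 35.6%, with 17.4% higher and 17.5% lower at 6 h against 0 h and 18.0% higher and 17.5% lower at 6 h against 1 h. The count at 6 h against 0 h was 7 without all libraries of replicate 2, 9 without its 0 h library, and 11 without all libraries of replicate 1, without the 0 h library of replicate 1 or without that of replicate 3, and the count at 6 h against 1 h was 10 without replicate 2. Their median log2 fold change with the block was -0.04, -0.03 and 0.01 in the 3 comparisons, against 0.00 for all tested genes.

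Among the ligands, Shh was at most 0.17 CPM in every library and was not tested, and Ihh lay between 0.15 and 0.38 CPM and was not called. Dhh was the only ligand above 1 CPM, with 4.16, 16.5 and 25.1 CPM in replicates 1, 2 and 3 at 0 h, 5.13, 17.2 and 28.1 at 1 h and 3.56, 12.3 and 23.5 at 6 h. It was lower at 6 h than at 1 h in every replicate (log2 fold change -0.40, SE 0.08, adjusted p = 0.00172 with the block) and lower than at 0 h (-0.24, SE 0.08, adjusted p = 0.0298), while its 5.97-fold range between replicates exceeded both changes. Scube2, which releases lipid-bearing ligand from cells, was called higher at 6 h against 1 h (adjusted p = 0.0483) at a level of at most 0.27 CPM. Gas1, a further coreceptor, fell in all 3 replicates, from 82.9, 41.6 and 67.4 CPM at 0 h to 63.2, 33.3 and 55.0 CPM at 6 h (log2 fold change -0.34, SE 0.06, adjusted p = 0.00117 with the block). Gas1 thus changed in the direction of Cdon and opposite to Boc.

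The genes that act on Smo split. Arrb1, a beta-arrestin, fell by 0.51 on the log2 scale at 6 h against 0 h (SE 0.09, adjusted p = 0.000577 with the block), from 36.5, 40.8 and 42.7 CPM to 22.8, 28.2 and 33.6 CPM, with no overlap between the time points. Mgrn1, a ubiquitin ligase that lowers Smo at the cilium, rose by 0.18 (adjusted p = 0.00850). Evc2, a protein at the base of the cilium that relays the Smo signal, was lower at 6 h than at 1 h (-0.25, adjusted p = 0.00204). In all, 1 of 7 genes of this role was called higher and 2 lower at 6 h against 0 h, where 17.4% of all tested genes were called higher and 17.5% lower.

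Of the 13 genes that act on Gli proteins, 3 were called higher and 4 lower at 6 h against 0 h with the block, beside 17.4% and 17.5% of all tested genes. Numb, which targets Gli1 for degradation through the ubiquitin ligase Itch, rose 1.52-fold, from 25.6, 40.2 and 37.9 CPM at 0 h to 43.4, 58.3 and 54.5 CPM at 6 h (log2 fold change 0.61, SE 0.06, adjusted p = 1.54e-05). Itch itself was higher at 6 h than at 1 h (0.29, SE 0.05, adjusted p = 0.00121), and so was Kif7, a ciliary kinesin that organises Gli proteins (0.30, SE 0.07, adjusted p = 0.00370). Cul3, the scaffold of a ligase for Gli2 and Gli3, and the kinase gene Csnk1a1 were lower at 6 h than at 0 h, by -0.22 (adjusted p = 0.00289) and -0.19 (adjusted p = 0.00992). The median log2 fold change over the 13 genes was -0.03.

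Of 5 genes of the primary cilium, Ift172, a subunit of the intraflagellar transport machinery, was called higher at 6 h against 0 h (0.39, SE 0.05, adjusted p = 6.67e-05 with the block). It went from 51.6, 50.3 and 45.8 CPM to 67.1, 68.7 and 58.1 CPM, with no overlap between the time points. Ift88 was also called at 6 h against 1 h (0.24, SE 0.07, adjusted p = 0.0229), and the other 3 were not called. In all, 1 of 5 genes of this role was called higher at 6 h against 0 h and 2 at 6 h against 1 h. The shares of all tested genes called higher were 17.4% and 18.0%.

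Of 9 listed targets of Gli factors, 6 were expressed enough to be tested, and at 6 h against 0 h 4 were called lower and 0 higher with the block, beside 17.5% and 17.4% of all tested genes. Bcl2, an inhibitor of apoptosis, fell from 38.9, 28.8 and 38.1 CPM to 23.5, 20.1 and 25.2 CPM (log2 fold change -0.61, SE 0.06, adjusted p = 1.44e-05), with no overlap between the time points. The cyclin genes Ccnd2 and Ccnd1 fell by 0.46 (adjusted p = 0.000153) and 0.27 (adjusted p = 0.00216) on the log2 scale. Mycn rose at 1 h against 0 h (0.52, SE 0.11, adjusted p = 0.0170) and was lower at 6 h than at 1 h (-0.84, SE 0.11, adjusted p = 7.16e-05). It was the only gene of the list called at 1 h, and no gene was called there without any 1 of the 3 libraries at 0 h, without the 1 h library of replicate 2 or without all libraries of replicate 2. Mycn had 3.43, 6.51 and 4.83 CPM in replicates 1, 2 and 3 at 0 h, 4.69, 10.4 and 6.33 at 1 h and 2.66, 4.81 and 4.30 at 6 h. These targets are also regulated by other pathways. Gli1, Ptch1 and Hhip, which are themselves targets of the pathway, were not called at 6 h against 0 h. Of these, Gli1 had only 7 to 42 counts in a library and Hhip 68 to 152. Whether Hedgehog signalling had a part in the changes of the listed targets was not tested.

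**Figure D5:**
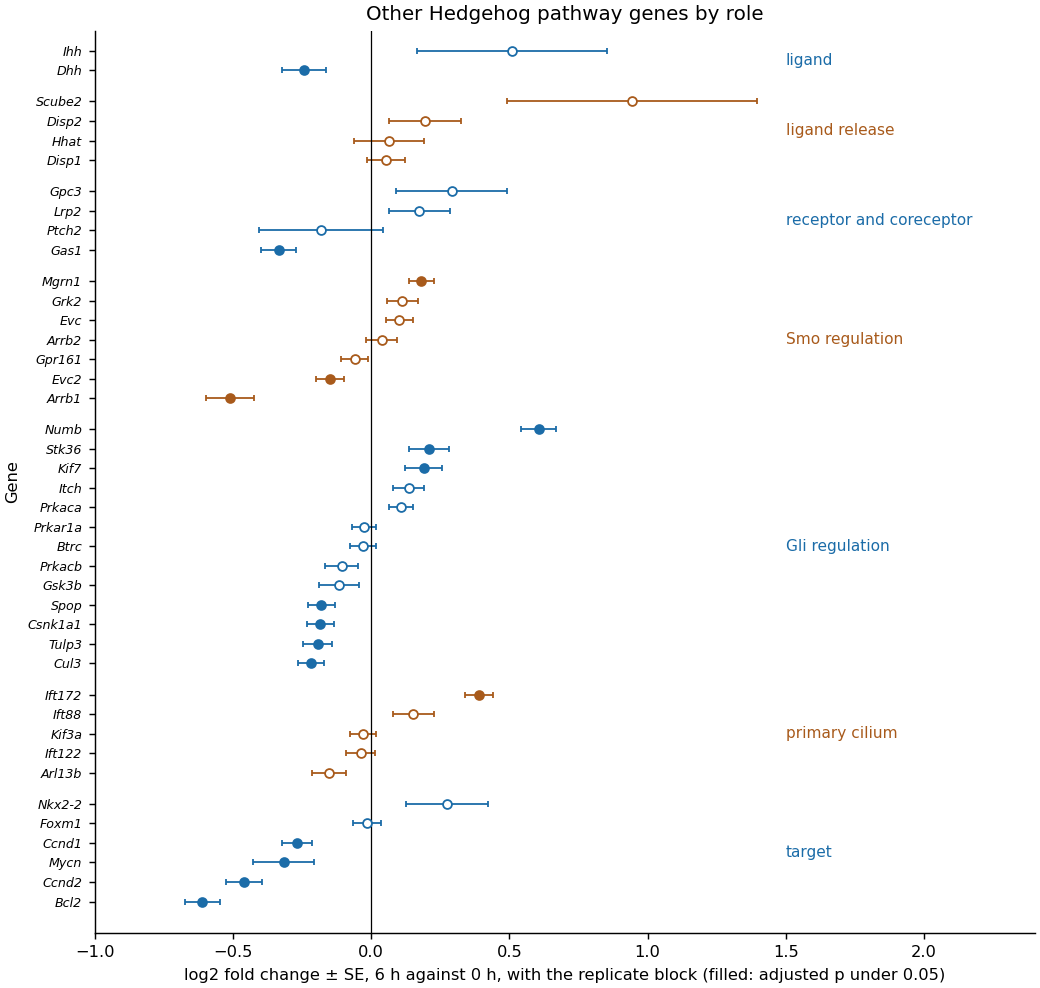
Log2 fold change at 6 h against 0 h with the replicate block (horizontal axis, with standard errors) for the 41 tested genes of the pathway other than the 9 core genes, grouped by role. Filled points have an adjusted p under 0.05: 5 lie to the right of 0 and 12 to the left, and the 4 filled targets all lie to the left.

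The genes whose pattern over the 9 libraries was most like that of Boc, once the mean of each replicate number had been subtracted from log2 CPM, were Ets1 (Pearson r = 0.992), Mxd1 (0.990), Gm42979 (0.990), Ecm2 (0.989) and Fkbp10 (0.987), among 13605 genes with a mean of at least 1 CPM. These correlations are over libraries that share 3 time points and are given as a description.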

How the data were processed

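The authors aligned paired-end reads from a stranded mRNA library to the mm10 build (GRCm38) and obtained gene counts with STAR 2.5.3a, after FastQC. They deposited raw counts and used DESeq2 1.22.1 with a Wald test. The strand setting of the counting is not given in the sources used here. The values were checked to be whole numbers, and the 9 columns matched the 9 libraries by name. No 2 libraries agreed within sampling noise (chi-square per degree of freedom of at least 13.5). GENCODE M21 held 48144 of the 48526 gene identifiers.

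The analysis used edgeR 4.0.16 in R 4.3.3 (filterByExpr with a minimum count of 10 and a minimum total of 15, TMM factors of 0.972 to 1.02, glmQLFit and glmQLFTest on all 9 libraries, Benjamini-Hochberg adjustment) and DESeq2 1.42.0. Plots and summaries came from Python 3.11.15 (pandas 2.3.3, matplotlib 3.10.9). SEs were derived from the F statistic. CPM per kb used the union of a gene's exons. The scripts were tested on simulated data.

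The replicate numbers stand for the letters B, C and D in the sample titles. With time point means removed, libraries with the same number correlated at 0.733 to 0.800 in 9 pairs, and the 18 other pairs at -0.462 to -0.314, so the numbers pair the samples. The fit without the block had a common biological coefficient of variation of 0.277, and the fit with the block 0.0627.

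The 9 genes, the lists and the tests were chosen with earlier results of these data known. All 9 genes are named, and of the other pathway genes at most 3 per role and comparison, by the smallest adjusted p with the block among those called, and the 3 ligands. Genes like Boc, the gene with the smallest blocked adjusted p at 6 h against 0 h, are the 5 with the highest correlation. Alternatives were DESeq2, the block, RLE scaling, library totals, no filter, a mean of at least 1 CPM, only the 6 libraries compared, removal of GC and length trends (4-degree-of-freedom splines, known for 99.6% of genes tested), and leaving out each library or, with the block, each replicate number. Leaving out each library, RLE scaling, library totals and the 1 CPM filter in the fit with the block were alternatives chosen after seeing the data. Protein sequences were not used here, and some listed genes are not reported here.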

Additional observations from a re-analysis of the deposited data

How the results depend on the processing

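The 9 genes and the 45 other pathway genes were recomputed under each alternative. Without the replicate block no edgeR alternative called a gene of either list. With the replicate block edgeR called 1, 3 and 4 of the 9 genes and 1, 17 and 19 pathway genes at 1 h against 0 h, 6 h against 0 h and 6 h against 1 h. DESeq2 with the block called 1, 3 and 5 genes and 1, 17 and 19 pathway genes, and DESeq2 without it 0, 1 and 1 genes and 0, 3 and 3 pathway genes. With the block and GC and length trends removed, 2, 4 and 5 genes and 1, 17 and 19 pathway genes were called. With the block and a library or a replicate number left out, the calls ranged from 0 to 2, 2 to 5 and 2 to 6 of the 9 genes, and from 0 to 1, 7 to 24 and 10 to 20 pathway genes. The test between replicates called 8 to 9 of the 9 genes under its alternatives. The longest transcript changed the place of 4 genes in the order of levels.

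The direction of changes that were not called turned as follows. Removal of GC and length trends turned Ptch1 to 0.0093 without and 0.0092 with the block, and Gli2 to -0.0084 without and -0.022 with the block, and library totals with the block turned Ptch1 to 0.0018, all at 6 h against 0 h. DESeq2 with the block turned Gli1 to 0.0037 at 6 h against 1 h.

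Without the block, leaving out 1 library gave these ranges of log2 fold changes that cross 0. At 1 h against 0 h they were -0.034 to 0.17 for Smo, -0.36 to 0.31 for Cdon, -0.025 to 0.38 for Hhip, -0.12 to 0.043 for Sufu, -1.43 to 0.30 for Gli1, -0.23 to 0.11 for Gli2 and -0.27 to 0.11 for Gli3. At 6 h against 0 h they were -0.11 to 0.070 for Ptch1, -0.66 to 0.056 for Cdon, -0.36 to 0.078 for Hhip, -0.87 to 0.042 for Gli1, -0.21 to 0.27 for Gli2 and -0.53 to 0.048 for Gli3. At 6 h against 1 h they were -0.62 to 0.094 for Cdon, -0.76 to 1.16 for Gli1, -0.12 to 0.33 for Gli2 and -0.39 to 0.12 for Gli3.

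With the block, leaving out a library or a number gave such ranges at 1 h against 0 h for Cdon (-0.18 to 0.022), Sufu (-0.076 to 0.020), Gli1 (-1.23 to 0.19), Gli2 (-0.17 to 0.093) and Gli3 (-0.24 to 0.068). For 6 h against 0 h they were -0.11 to 0.063 for Ptch1, -0.19 to 0.0062 for Hhip, -0.95 to 0.046 for Gli1 and -0.079 to 0.16 for Gli2. For 6 h against 1 h they were -0.35 to 0.74 for Gli1, -0.067 to 0.26 for Gli2 and -0.32 to 0.074 for Gli3. No change called with the block turned its direction in an alternative with the block, whereas Cdon at 6 h against 0 h did without the block when 1 library was left out, and the cause of the turns was not tested. Gli1 had 7 to 42 counts in a library.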
